A study of Gorilla gorilla gorilla with 13 samples.

Results

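Gorilla radial glia libraries numbered 3 and 4 differed from those numbered 1 and 2 in genes of glycolysis, the hypoxia response, sterol synthesis and protein folding, and in single genes of other groups, such as the Wnt antagonist SFRP2. The comparison takes aRG libraries 3 and 4 and bRG libraries 3 and 4 (4 libraries) against aRG libraries 1 and 2 and bRG libraries 1 and 2 (4 libraries), 8 of the 13 libraries of the study, across all named genes. The labels declare no difference between the numbers. The split was chosen because gene values in these same libraries differed along it, so fold changes and calls between its sides are given below as a description of library variation, without p-values, and nothing is supported by them. What the choice did not use was tested: whether the difference was unequal in the 2 radial glia populations, and whether it was seen in the basal intermediate progenitor libraries.

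The study sorted 4 cell populations from gorilla cerebral organoids, which are brain-like tissues grown from stem cells, and sequenced the RNA of each population in bulk. All groups came from 1 induced pluripotent stem cell line, GC1, of the western lowland gorilla, carry no edit or treatment in the labels, and were taken at week 8 of culture, give or take 3 days. The populations were apical radial glia (aRG, numbers 1 to 4), basal radial glia (bRG, numbers 1 to 4), basal intermediate progenitors (bIP, numbers 1 to 3) and BCL11B-positive neurons (N, 2 libraries). The neuron labels bear numbers 1 and 3, but the neuron columns bear numbers 1 and 2. Because number 2 is absent from the neuron labels, that column is called the unnumbered neuron library. RNA of 10000 sorted cells was amplified by Smart-seq2, a full-length cDNA method without molecular identifiers, with 12 to 17 cycles of PCR. The library names run in the order of the numbers, all populations of number 1 first. The labels do not state whether replicate libraries had cultures of their own. Each test therefore measures how far these libraries spread, possibly for technical reasons, and results from 1 line describe that line.

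Radial glia divide to give the neurons of the growing cortex. Apical cells keep an attachment to the ventricle, and basal cells have left it. Cells short of oxygen stabilise hypoxia-inducible factors, which raise glycolytic enzymes and lactate production, and organoids lack blood vessels. Cells short of sterol activate SREBP factors, which raise the enzymes of cholesterol and fatty acid synthesis, and misfolded protein in the endoplasmic reticulum raises chaperones through the unfolded protein response. Secreted Wnt antagonists such as SFRP2 and transcription factors such as SIX3 and SIX6 mark regions of the early forebrain and eye field.

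Levels below are CPM from the hg38 table, the read count of a gene relative to its library's total after TMM scaling, which corrects for differences in library composition. Libraries 3-4 were sequenced deeper: hg38 totals were 5464721 to 7153514 counts in radial glia libraries 1-2 and 9761818 to 10551184 in libraries 3-4, without overlap, and 5464721 to 12524938 over all 13 libraries. When the counts of the 8 libraries were thinned to the smallest total, all 522 genes called with full counts kept their direction and 499 were called again. Some markers of radial glia were high where the labels place these cells. SLC1A3, a glial glutamate transporter, measured 596 to 1365 CPM in the 8 libraries and 12.3 to 18.6 in bIP and N. PAX6 measured 532 to 1090 against 13.8 to 20.2 (chosen after its values were seen). Not every gene of the radial glia list did so: PTPRZ1 measured 606 to 1439 CPM in the 8 libraries, 439 to 772 in bIP, and 1026 and 1308 in N. One library stood apart. On the first principal component of the 8 libraries (54.8% of the variance), bRG library 3 lay at 91.4 and the other 7 between -20.0 and -4.34. MALAT1, a nuclear noncoding RNA, took 21.3% of the gorGor6 counts of bRG library 3, against 6.85% to 10.4% in the other 7, and 16534 genes had a count in it, the fewest of the 13 libraries. Counts of genes are therefore given with and without bRG library 3. The third component (8.87%) ran with the split, at -1.67 to 22.8 in libraries 1-2 and -18.9 to -1.88 in libraries 3-4.

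The 4 genes given with the split show its form. LDHA, the lactate dehydrogenase subunit that makes lactate from pyruvate, measured 216, 193, 493 and 672 CPM in aRG libraries 1 to 4 and 137, 112, 320 and 324 in bRG libraries 1 to 4. All 4 libraries of number 3 or 4 lay above all 4 of number 1 or 2, a log2 fold change of 1.43 (SE 0.208). MSMO1, a sterol demethylase of cholesterol synthesis, measured 319, 266, 717 and 872 CPM in aRG and 303, 180, 1143 and 884 in bRG, again without overlap (log2 fold change 1.74, SE 0.255). ELAVL3, an RNA-binding protein of differentiating neurons, measured 123, 132, 49.6 and 44.7 CPM in aRG and 145, 136, 64.6 and 43.4 in bRG. Here libraries 3-4 lay below libraries 1-2 without overlap (-1.42, SE 0.203). In a bulk sample fewer cells of a type and less RNA of the gene per cell cannot be told apart. SFRP2, a secreted Wnt antagonist, measured 67.9, 242, 20.4 and 22.4 CPM in aRG and 50.2, 122, 10.6 and 17.5 in bRG. Libraries 3-4 were low throughout, and within libraries 1-2 the number 2 library of each population was the highest (-2.75, SE 0.391). Over 18 alternative settings the log2 fold change was 1.28 to 1.51 for LDHA, 1.43 to 1.99 for MSMO1, -1.56 to -1.34 for ELAVL3 and -2.99 to -2.29 for SFRP2.

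**Figure D1:**
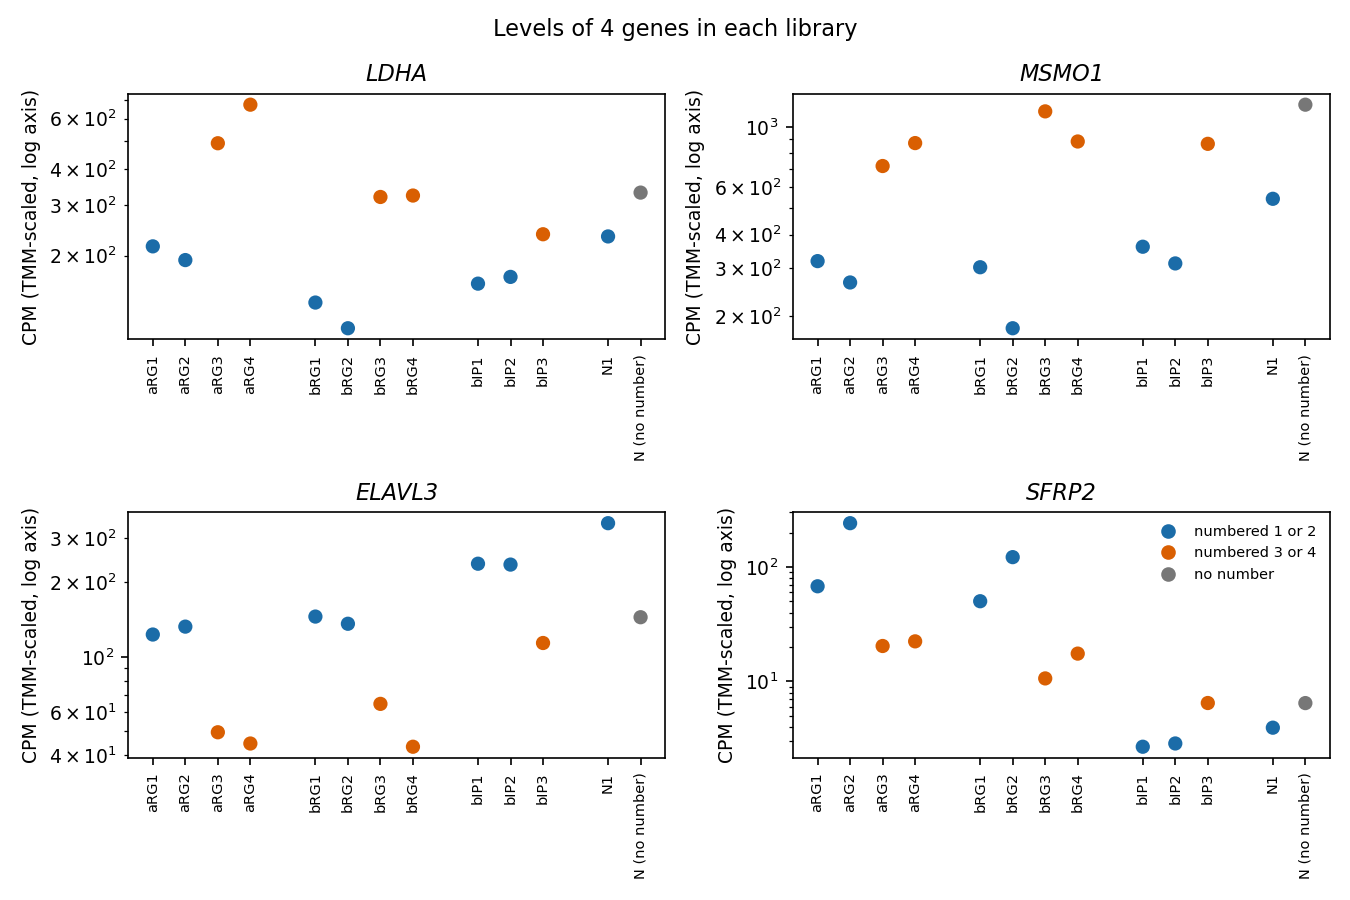
Level of LDHA, MSMO1, ELAVL3 and SFRP2 (CPM after TMM scaling, log axis) in each of the 13 libraries, 1 point per library and colour by library number. Among radial glia all libraries numbered 3 or 4 lie above those numbered 1 or 2 for LDHA and MSMO1 and below them for ELAVL3 and SFRP2, and bIP library 3 departs from bIP libraries 1 and 2 the same way for the first 3 genes but not for SFRP2.

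Of 16432 genes tested, 522 were called (3.18%), meaning a Benjamini-Hochberg adjusted p under 0.05 in edgeR's quasi-likelihood test with population as a term: 413 were higher in libraries 3-4 (2.51%) and 109 lower (0.663%). In CPM, 1303 genes lay above without overlap (7.93%) and 762 below (4.64%). These shares are the background for the counts of list genes below, and since the split was chosen on this contrast nothing is read from them. The number of calls rested on single libraries: it was 1099 without bRG library 3 (713 higher, 386 lower), 48 without bRG library 2, 56 without aRG library 2, 69 without aRG library 4 and 0 without bRG library 1. All 522 genes kept their sign in each of these fits. Without bRG library 3, 4.24% of 16803 genes tested were called higher and 2.30% lower, and 521 of the 522 genes were among the 1099 (99.8% of the first set and 47.4% of the second). Of the calls with 8 libraries 79.1% were higher, against 68.8% with DESeq2 and 64.9% without bRG library 3.

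Glycolysis genes leaned to libraries 3-4. Of 23 tested, 22 had a log2 fold change above 0, 5 were called higher and none lower (7 and 0 without bRG library 3), and the median was 0.69, against 0.0037 over all genes tested. In aRG alone the median was 0.61 and in bRG alone 0.57. HK2, a hexokinase that traps glucose in the cell, measured 45.5, 45.9, 122 and 98.2 CPM in aRG and 65.4, 56.9, 292 and 136 in bRG (log2 fold change 1.52, SE 0.256). SLC16A1, a lactate transporter, measured 167, 158, 283 and 385 CPM in aRG and 125, 115, 434 and 278 in bRG (1.29, SE 0.230). Both genes separated the sides without overlap. The glucose transporter SLC2A1 (0.95) and the enolase ENO1 (0.95) were also called. TPI1, triosephosphate isomerase, measured 85.1, 127, 245 and 400 CPM in aRG but 89.2, 107, 109 and 193 in bRG and was not called. Its difference came mainly from the aRG libraries (1.60 in aRG and 0.61 in bRG).

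Hypoxia response genes held the largest count of calls among the lists. Of 32 tested, 26 lay above 0, 11 were called higher and none lower (12 and 0 without bRG library 3), with a median of 0.80 (0.79 in aRG and 1.17 in bRG). The bRG value includes bRG library 3, and without that library the median over both populations was 0.65. ANKRD37, a target of hypoxia-inducible factor, measured 11.3, 13.1, 81.1 and 32.4 CPM in aRG and 35.1, 8.05, 245 and 72.8 in bRG (log2 fold change 2.55, SE 0.483). Within each population libraries 3-4 were above libraries 1-2, but aRG library 4 lay below bRG library 1. DDIT4, a stress-induced inhibitor of mTOR signalling, measured 13.1, 24.0, 141 and 83.7 CPM in aRG and 20.9, 31.5, 53.6 and 90.3 in bRG, without overlap (2.00, SE 0.337). BNIP3, a mitophagy receptor, measured 78.8, 102, 343 and 226 CPM in aRG and 123, 113, 661 and 247 in bRG (1.78, SE 0.293). The same separation was seen for P4HA1, a collagen prolyl hydroxylase (65.8 to 109 CPM in libraries 1-2 and 220 to 422 in libraries 3-4), and for LOX, a collagen cross-linking oxidase (17.8 to 23.5 and 47.8 to 81.9). VEGFA, the vascular growth factor and a further target, did not separate the sides (254, 194, 307 and 203 CPM in aRG and 307, 190, 898 and 329 in bRG, chosen after its values were seen). Averaged over the list, log2 CPM was 5.00 to 5.48 in libraries 1-2 and 5.50 to 6.20 in libraries 3-4.

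Oxidative phosphorylation genes lay above 0 for 33 of 40 tested, with 3 called higher and none lower (5 and 0 without bRG library 3) and a median of 0.40 (0.28 without that library). Among the calls, ATP5F1B, the catalytic ATP synthase subunit, measured 266, 243, 364 and 652 CPM in aRG and 158, 156, 320 and 326 in bRG (log2 fold change 1.00, SE 0.223). SDHD, a complex II anchor, measured 18.4, 15.9, 29.9 and 59.2 CPM in aRG and 19.7, 14.4, 62.7 and 31.5 in bRG (1.41, SE 0.309). Both separated the sides without overlap. Cytosolic ribosomal protein genes had a median of -0.02, with 21 of 46 above 0 and none called in either direction (0 higher and 1 lower without bRG library 3). The medians of the glycolysis and oxidative phosphorylation lists lay above that of all genes, and the ribosomal median was close to it.

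Of 25 tested genes of cholesterol synthesis, 22 lay above 0, 4 were called higher and none lower (8 and 0 without bRG library 3), with a median of 0.61 (0.45 in aRG and 0.82 in bRG). Without bRG library 3 the median over both populations was 0.56. INSIG1, the sterol-sensing anchor that holds SREBP in the endoplasmic reticulum, measured 211, 158, 384 and 514 CPM in aRG and 149, 89.9, 529 and 305 in bRG (log2 fold change 1.53, SE 0.266). STARD4, a cholesterol carrier, ranged from 70.4 to 118 CPM in libraries 1-2 and from 179 to 246 in libraries 3-4 (1.20). Both genes and MSMO1 separated the sides without overlap. INSIG2, a paralog of INSIG1 placed in the hypoxia list, measured 44.8, 35.0, 95.4 and 85.8 CPM in aRG and 49.5, 27.7, 300 and 110 in bRG. Its level in bRG library 3 was far above the rest (log2 fold change 1.79, and 1.31 without that library).

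Fatty acid synthesis genes differed less: 13 of 17 lay above 0, 1 was called higher and none lower (4 and 0 without bRG library 3), with a median of 0.40. ELOVL5, an elongase of polyunsaturated fatty acids, measured 108, 69.8, 225 and 236 CPM in aRG and 69.6, 37.7, 175 and 123 in bRG (log2 fold change 1.41, SE 0.246). SCD, the stearoyl-CoA desaturase, measured 1278, 670, 1585 and 1944 CPM in aRG and 823, 364, 2207 and 1690 in bRG and was not called. For ELOVL5, SCD and INSIG1 the number 2 library was the lowest of its population.

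**Figure D2:**
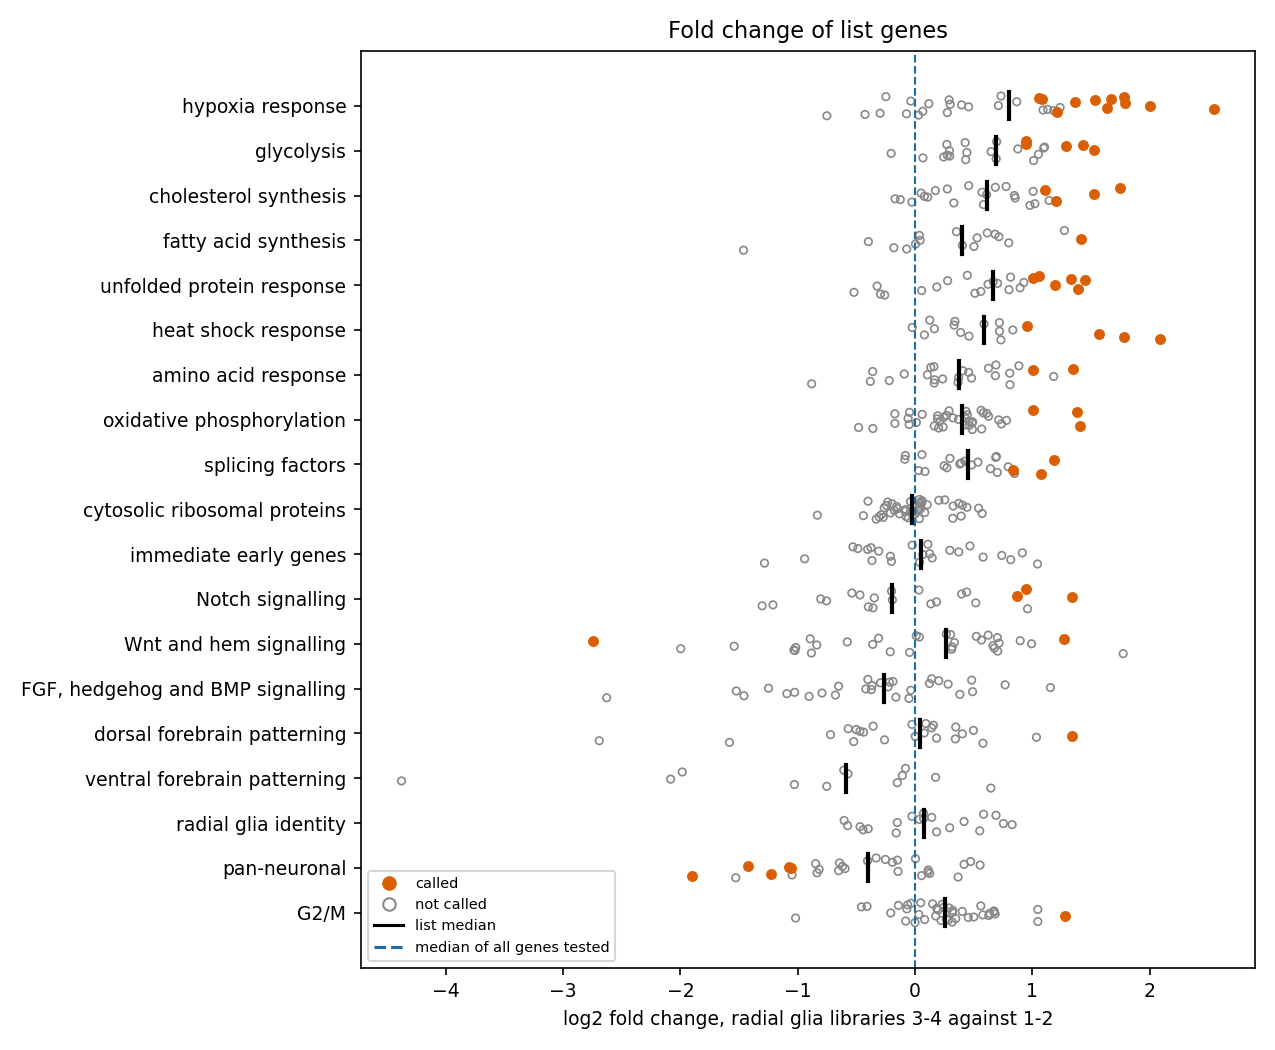
Log2 fold change of each tested gene of 19 lists, radial glia libraries 3-4 against 1-2, with filled points for called genes, open points for genes not called, a bar at each list median and a dashed line at the median of all 16432 genes. The hypoxia, glycolysis, unfolded protein response and cholesterol lists have medians of 0.80, 0.69, 0.67 and 0.61, and called genes of the pan-neuronal list lie below 0.

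Several endoplasmic reticulum chaperones were called higher in libraries 3-4. Of 23 tested genes of the unfolded protein response, 19 lay above 0, 6 were called higher and none lower (9 and 0 without bRG library 3), with a median of 0.67 (0.55 in aRG and 0.91 in bRG), and 11 separated the sides without overlap. Without bRG library 3 the median over both populations was 0.52. PDIA6, a disulfide isomerase, measured 154, 108, 271 and 337 CPM in aRG and 114, 71.0, 299 and 308 in bRG (log2 fold change 1.45, SE 0.235). PDIA3 (1.33) and PDIA4 (1.01), further isomerases, the co-chaperone DNAJB9 (1.39), HERPUD1 (1.20), which serves degradation of misfolded protein, and the lectin chaperone CANX (1.06) were the other calls. The average log2 CPM of these genes was 5.75 to 6.44 in libraries 1-2 and 6.68 to 6.91 in libraries 3-4.

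Heat shock genes lay above 0 for 16 of 17 tested, with 4 called higher and none lower (6 and 0 without bRG library 3) and a median of 0.59. HSPA1A, an inducible cytosolic chaperone, measured 10.3, 13.8, 79.5 and 31.6 CPM in aRG and 3.23, 6.84, 28.3 and 12.4 in bRG (log2 fold change 2.08, SE 0.399). HSPA1B, its near-identical copy, was called too (1.78), but how reads were divided between the copies is not given, so the level of each is uncertain. Both genes were highest in aRG library 3. DNAJB4 (1.57), a heat-inducible co-chaperone, measured 14.6 to 21.9 CPM in libraries 1-2 and 43.8 to 58.9 in libraries 3-4. DNAJA1 (0.96), which works with HSP70 proteins, was the fourth call.

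Further stress lists held fewer calls. Among 25 tested genes of the amino acid response, the program of amino acid shortage, 20 lay above 0 and 2 were called higher, the serine synthesis gene PSAT1 (1.35) and the mitochondrial hydroxymethyltransferase SHMT2 (1.01), with none lower (3 and 0 without bRG library 3). Among 22 genes of p53 and apoptosis, 3 were called higher and none lower, with or without bRG library 3 (median 0.21): CCNG1 (1.24) and CDKN1A (0.93), both p53 targets, and MCL1 (0.85), which blocks apoptosis. No gene of the immediate early list was called (24 tested, median 0.05, 1 higher without bRG library 3), and none of the oxidative stress list (19 tested, median 0.11, 1 higher without bRG library 3). JUNB, an immediate early factor, was high in 1 library of the 8, aRG library 3 (27.7 CPM, against 2.55 to 6.40 in the other 7). A list of 22 splicing factors, many of which are regulated after transcription, had 20 above 0 and 3 called higher, with none lower, both with and without bRG library 3 (median 0.45). They were SRSF5 (1.18), SRSF1 (1.08) and HNRNPK (0.83).

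**Figure D3:**
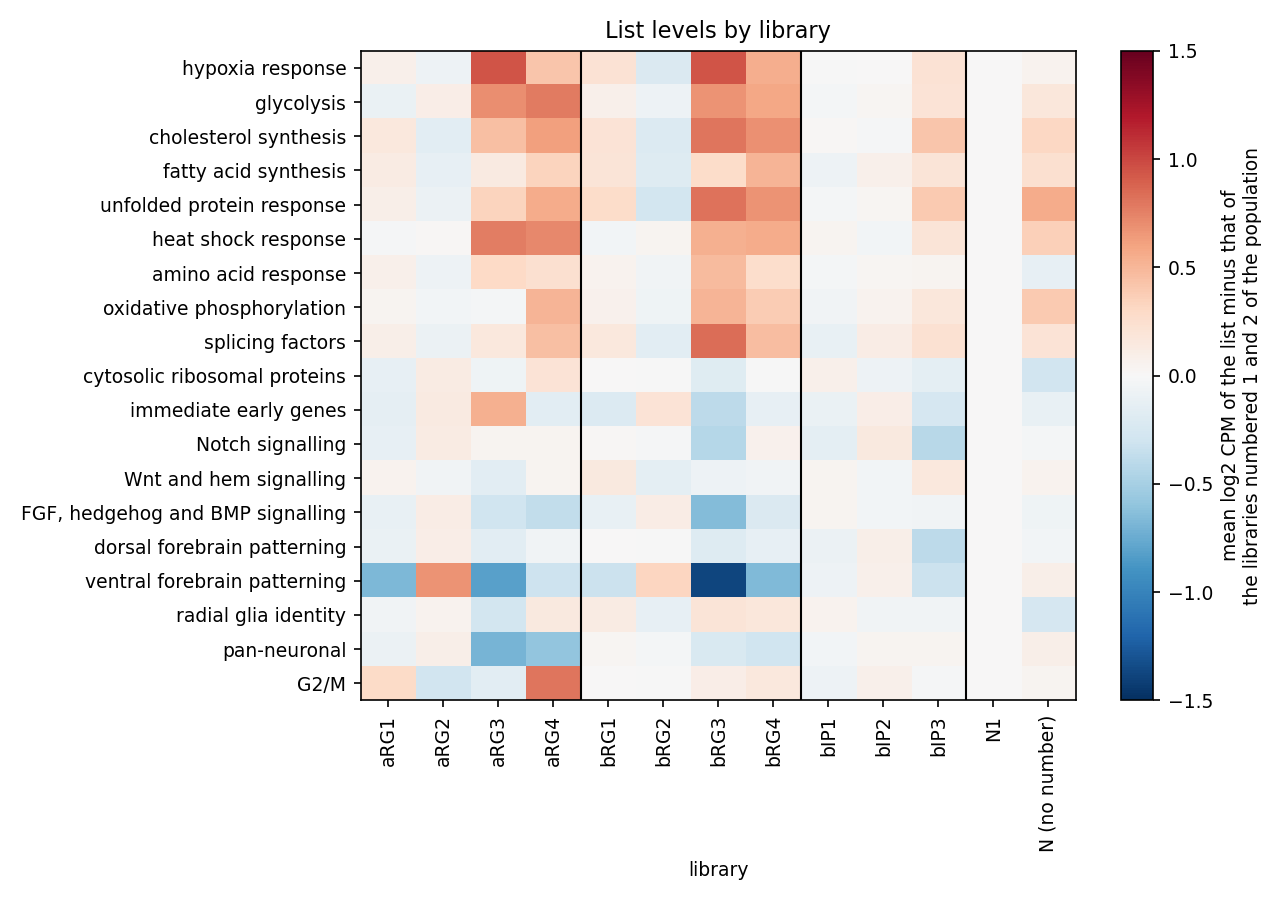
Mean log2 CPM of the tested genes of 19 lists in each library, minus the mean of the libraries numbered 1 and 2 of the same population (for neurons, minus the library numbered 1), on a colour scale from -1.5 to 1.5. Radial glia libraries 3 and 4 are above their reference for the hypoxia, glycolysis, cholesterol, unfolded protein and heat shock lists, bIP library 3 is above its reference for the same lists, and the ventral forebrain list is lowest in bRG library 3.

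Patterning genes formed a different picture, with few calls and wide spread. Of 12 tested ventral forebrain factors 2 lay above 0 and none was called (median -0.59, 0 higher and 1 lower without bRG library 3). Dorsal forebrain factors had 13 of 24 above 0 (median 0.04), with 1 called higher, HEY1, and none lower (1 and 4 without bRG library 3). Midbrain and hindbrain factors (19 tested, median -0.21) had no calls with or without bRG library 3. FGF, hedgehog and BMP genes (30 tested, 9 above 0, median -0.26) had none, and 0 higher and 1 lower without bRG library 3.

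Several rostral forebrain and eye-field genes were highest in the number 2 library of both populations. SIX3, a homeobox factor of the rostral forebrain, measured 9.72, 51.6, 2.01 and 6.71 CPM in aRG and 2.72, 27.8, 0.354 and 4.85 in bRG. In both populations library 2 stood alone, and the other 6 libraries overlapped. ISL1, a factor of ventral and retinal neurons, measured 1.80, 38.1, 0.766 and 10.5 CPM in aRG and 1.36, 21.3, 0.118 and 5.04 in bRG. FZD5, a Wnt receptor of the eye field, measured 5.58, 27.7, 1.53 and 5.37 CPM in aRG and 6.30, 16.8, 4.13 and 3.04 in bRG. FGF9, a growth factor, measured 12.8, 42.2, 10.8 and 11.9 CPM in aRG and 15.7, 29.7, 9.44 and 10.5 in bRG. It was higher outside radial glia, at 62.3, 71.3 and 42.9 CPM in bIP libraries 1 to 3 and 67.8 and 42.5 in the neuron libraries. For FZD5 and FGF9 all libraries of number 3 or 4 also lay below all of number 1 or 2, and for ISL1 the sides overlapped. Library 2 was the highest of its population for each of these genes, as it was for RAX (9.53 CPM in aRG library 2 and 6.06 in bRG library 2) and SFRP2. SIX6 was low outside libraries 1-2 of bRG and library 2 of aRG (0.540, 22.9, 0.192 and 2.27 CPM in aRG and 6.47, 7.28, 0.118 and 0 in bRG). At these levels SIX6 and RAX rest on few reads in most libraries. The log2 fold changes between the sides were -4.38 for SIX6, -2.69 for SIX3, -2.08 for RAX, -1.997 for FZD5, -1.98 for ISL1 and -1.25 for FGF9, and none of these genes was called by edgeR. DESeq2 called SIX6, FZD5 and FGF9 lower, and edgeR without bRG library 3 called SIX3, SIX6 and FZD5 lower.

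**Figure D4:**
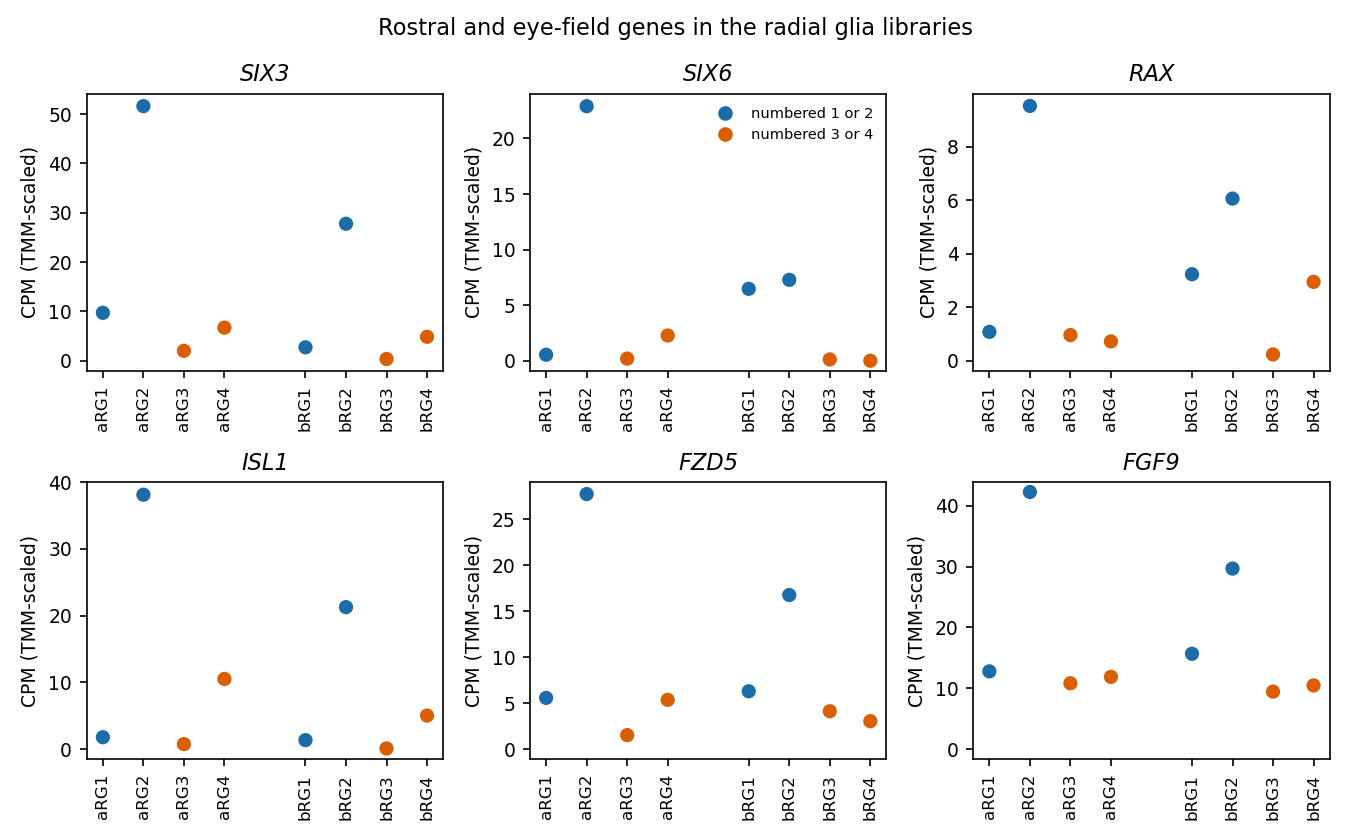
Level (CPM after TMM scaling, linear axis from 0) of 6 genes in the 8 radial glia libraries, 1 point per library: SIX3, SIX6, RAX, ISL1, FZD5 and the growth factor FGF9. The library numbered 2 is the highest of its population in each panel, for SIX3 at 51.6 CPM in aRG and 27.8 in bRG.

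Wnt and cortical hem genes went both ways. Of 33 tested, 19 lay above 0, LEF1 was called higher and SFRP2 lower (1 higher and 4 lower without bRG library 3), and the median changed sign with that library, from 0.27 to -0.11. LEF1, a transcription factor of Wnt signalling, measured 61.0, 43.4, 104 and 120 CPM in aRG and 36.6, 28.9, 99.6 and 80.9 in bRG (log2 fold change 1.27, SE 0.218). FZD8, a Wnt receptor of radial glia, measured 149, 145, 52.9 and 80.4 CPM in aRG and 93.6, 56.8, 51.5 and 46.6 in bRG and was not called (-0.89). LEF1 separated the sides and FZD8 did so only within each population. Notch genes also differed among themselves: of 21, HEY1 (1.34), NOTCH2 (0.94) and the ligand JAG1 (0.87) were called higher and none lower, with or without bRG library 3, while the median was -0.19 with and 0.03 without that library. HEY1, a Notch effector, measured 34.2, 55.0, 102 and 99.2 CPM in aRG and 31.7, 53.3, 144 and 103 in bRG. All libraries of number 3 or 4 lay above those of number 1 or 2.

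Stem cell identity genes were not called on either side. Of 20 radial glia genes 12 lay above 0 (median 0.07), with 0 called (0 higher and 1 lower without bRG library 3). In CPM 3 of the 20 lay above without overlap and 0 below, where 7.93% and 4.64% of all genes did. The 3 were SOX9 (log2 fold change 0.75), SLC1A3 (0.69) and PROM1 (0.83). SOX2, a stem cell factor, measured 640, 423, 240 and 266 CPM in aRG and 366, 219, 330 and 212 in bRG. It was lower in aRG libraries 3-4 than in aRG libraries 1-2, and the bRG libraries overlapped. SOX9, a glial factor, was highest in aRG library 4 (294 CPM, against 158 to 170 in aRG libraries 1 to 3) and measured 122, 110, 276 and 197 in bRG. Intermediate progenitor genes had 9 of 18 above 0 and no call (2 higher and 0 lower without bRG library 3). EOMES, their defining factor, measured 244, 157, 39.9 and 130 CPM in aRG and 426, 318, 460 and 260 in bRG (chosen after its values were seen), so aRG libraries 3-4 were low and the bRG libraries overlapped.

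Some neuronal genes were called lower in libraries 3-4, and most were not called. Of 29 tested pan-neuronal genes 20 lay below 0, 5 were called lower and none higher (10 and 0 without bRG library 3), with a median of -0.40 (-0.69 in aRG and -0.16 in bRG). NEFM, a neurofilament subunit, measured 24.3, 38.4, 3.54 and 6.61 CPM in aRG and 15.8, 26.7, 6.02 and 12.8 in bRG (log2 fold change -1.90, SE 0.441). GRIA2, a glutamate receptor subunit, measured 137, 96.3, 62.5 and 32.7 CPM in aRG and 117, 91.5, 69.8 and 47.0 in bRG (-1.08, SE 0.260). MYT1L (-1.06) and NEUROD2 (-1.23), neuronal transcription factors, and ELAVL3 completed the calls. The summed level of the list was 3370 to 4721 CPM in libraries 1-2 and 2756 to 4737 in libraries 3-4, so the sums overlapped. Its mean log2 CPM was 6.10 to 6.36 in libraries 1-2 and 5.56 to 5.90 in libraries 3-4. Cajal-Retzius neuron genes had 3 of 10 above 0 and no call, with or without bRG library 3.

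Cell cycle genes were slightly above the median of all genes. Of 40 G2/M genes 30 lay above 0 (median 0.26), with 1 called higher and none lower, both with and without bRG library 3. That gene was CDK1, the mitotic kinase, which measured 151, 76.0, 144 and 394 CPM in aRG and 13.8, 11.5, 35.5 and 28.3 in bRG. In aRG the sides overlapped, since library 1 lay above library 3. S phase genes had 24 of 34 above 0 (median 0.19) and no call (2 higher and 1 lower without bRG library 3).

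Markers of other cell types were low or overlapped, with 1 exception. Choroid plexus genes (16 tested, 0 called with or without bRG library 3) summed to 534 to 6238 CPM in libraries 1-2 and 1011 to 8883 in libraries 3-4. TTR, the choroid plexus carrier of thyroid hormone, supplied most of it, at 5030, 1536, 7629 and 3839 CPM in aRG and 1172, 169, 685 and 479 in bRG (chosen after its values were seen). Mesenchyme (14 tested, 229 to 582 CPM against 321 to 585), endothelium and blood (11 tested, 64.4 to 83.2 against 28.0 to 133), microglia (8 tested, 58.1 to 71.1 against 47.8 to 76.3) and retina and neural crest (17 tested, 101 to 185 against 97.4 to 191) had no calls with or without bRG library 3. Astrocyte and oligodendrocyte genes summed to 353 to 425 CPM in libraries 1-2 and 243 to 270 in libraries 3-4, without overlap. Of 14 tested 3 lay above 0, among them GFAP (log2 fold change 0.55), and 1 was called lower with or without bRG library 3. That gene was SLC1A2, a glutamate transporter (137, 137, 57.2 and 42.3 CPM in aRG and 116, 119, 27.5 and 60.8 in bRG). SLC1A2 was higher in bIP libraries 1 to 3 (174, 307 and 204 CPM) and in the neuron libraries (259 and 243), so it was not particular to glial cells here. No marker of these lists that is in the hg38 table was at 0 in all 8 libraries. The part of these cells in the differences between the sides was not tested.

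The largest differences of well-measured genes (mean log2 CPM of at least 5) reached beyond these pathways. Besides ANKRD37, DDIT4, INSIG2 and BNIP3, the 12 largest rises included MED31 (log2 fold change 1.93), a Mediator subunit, TMX1 (1.80), an endoplasmic reticulum thioredoxin, and ORC4 (1.78), of the replication origin complex. LAPTM4A (1.78), a lysosomal membrane protein, measured 210, 154, 405 and 590 CPM in aRG and 110, 91.6, 422 and 459 in bRG. GOLT1B (1.78), a Golgi transport protein, BCHE (1.77), butyrylcholinesterase, UFM1 (1.76), a ubiquitin-like modifier, and LPL (1.75), lipoprotein lipase, completed the 12. For ORC4, GOLT1B and UFM1 bRG library 3 was far above the other libraries (842, 381 and 359 CPM), and without it their log2 fold changes were 1.41, 1.39 and 1.33.

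After SFRP2, the falls were led by POU2F2, an octamer-binding transcription factor, at 99.4, 151, 38.5 and 36.3 CPM in aRG and 127, 144, 55.3 and 40.1 in bRG (log2 fold change -1.64, SE 0.218). KLHL35, a Kelch-like protein, measured 79.6, 92.7, 22.8 and 27.3 CPM in aRG and 219, 213, 71.2 and 86.3 in bRG (-1.63, SE 0.201). Within each population the sides did not overlap. BCL7C (-1.57), a subunit of the BAF chromatin complex, CAVIN4 (-1.51), a caveola protein of muscle, COQ6 (-1.49), an enzyme of coenzyme Q synthesis, SLC1A2 (-1.45), the sphingomyelinase SMPD3 (-1.43), the adhesion protein FBLIM1 (-1.42) and CACNG8 (-1.42), a partner of AMPA receptors, were further falls. The remaining pair of the 12 was MTRNR2L8 (-1.56) and MTRNR2L12 (-1.51), nuclear copies that share sequence with the mitochondrial 16S ribosomal RNA. MTRNR2L8 measured 3682, 4696, 1383 and 2080 CPM in aRG and 2136, 1720, 601 and 496 in bRG. Reads of these genes and of mitochondrial RNA may not be separable in the hg38 table, and all 37 mitochondrial rows of the gorGor6 table are 0, so the values are uncertain. The summed CPM of the MTRNR2L family was 2063 to 5572 in libraries 1-2 and 594 to 2492 in libraries 3-4. The sides overlapped across populations but not within them: it was 4330, 5572, 1670 and 2492 in aRG, 2531, 2063, 729 and 594 in bRG, and 6103, 6726 and 938 in bIP libraries 1 to 3.

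Whether the difference was unequal in basal and apical radial glia was tested with the interaction of population and side, which the split did not use. No gene of 16432 was called by edgeR's quasi-likelihood test, and 540 had an unadjusted p under 0.05 (3.29%). DESeq2 also called 0 genes, with 651 under that unadjusted value. The 4 genes given with the split came from its choice, which could favour similar differences in both populations, so no p-value is given for them. LDHA differed by 1.50 on the log2 scale in aRG and 1.35 in bRG, an interaction of -0.15 (SE 0.417). MSMO1 differed by 1.44 and 2.05 (interaction 0.62, SE 0.478), ELAVL3 by -1.44 and -1.40 (0.04, SE 0.411) and SFRP2 by -2.86 and -2.63 (0.23, SE 0.766). With standard errors of this size modest unequal responses could go uncalled, so the absence of calls does not show that the responses were equal. The 4 genes with the smallest p were HASPIN, ZSWIM3, CLDN3 and C21orf58 (edgeR adjusted p = 0.931 for each). C21orf58 measured 351, 417, 464 and 701 CPM in aRG and 111, 126, 44.6 and 57.0 in bRG, higher on side 3-4 in aRG and lower in bRG. The other 3 were under 20 CPM in all 8 libraries. The count of 0 rested on 1 library: without bRG library 4, 991 genes were called (261 with a higher and 730 with a lower difference in bRG), and bRG library 3 was then the sole bRG library of side 3-4.

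Basal intermediate progenitors, the committed daughters of radial glia, were not used by the split, and their library 3 was compared with their libraries 1 and 2. With 1 library against 2 the spread was taken from the radial glia libraries, on the assumption that bIP libraries vary like them. No gene of 17199 was called by edgeR, 728 had an unadjusted p under 0.05 (4.23%): 448 were higher in library 3 (2.6%) and 280 lower (1.63%). DESeq2 called 26 (11 higher, 15 lower). The count was 9 without bRG library 3 and 911 (501 higher, 410 lower) when only the 3 bIP libraries entered the fit. LDHA measured 160, 169 and 238 CPM in bIP libraries 1 to 3 (log2 fold change 0.53, SE 0.317, edgeR adjusted p = 1). MSMO1 measured 361, 313 and 867 CPM (1.37, SE 0.364, edgeR adjusted p = 0.822), and ELAVL3 237, 235 and 114 (-1.05, SE 0.336, edgeR adjusted p = 1). For these 3 genes library 3 lay on the same side as in radial glia. SFRP2 was low in bIP, at 2.69, 2.87 and 6.48 CPM, and went the other way (log2 fold change 1.22, SE 0.700).

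The 4 genes with the smallest p of that contrast were MTRNR2L12, NHLH1, MTRNR2L8 and DMRTA2, all lower in bIP library 3. NHLH1, a factor of newborn neurons, measured 71.2, 111 and 12.0 CPM in bIP libraries 1 to 3 (log2 fold change -2.93, SE 0.462, edgeR adjusted p = 0.154). DMRTA2, a dorsal forebrain factor, measured 83.2, 102 and 20.9 CPM (-2.14, SE 0.402, 0.384). MTRNR2L8 measured 5146, 5643 and 781 CPM in bIP, and 5170 and 1125 in neuron library 1 and the unnumbered neuron library. NHLH1 and DMRTA2 were not called in radial glia, where NHLH1 measured 30.2, 44.0, 24.9 and 19.7 CPM in aRG and 78.1, 91.2, 57.7 and 54.0 in bRG.

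Genes called between the radial glia sides mostly kept their direction in the libraries outside the split. Of the 413 genes called higher, 391 (94.7%) had a log2 fold change above 0 in bIP library 3 against libraries 1 and 2, where 50.3% of all 16432 genes did. In 374 (90.6%) bIP library 3 lay above both other bIP libraries, against 38.5% of all genes. Of the 109 called lower, 97 (89.0%) were below 0, against 49.6% of all genes, and in 89 (81.7%) bIP library 3 lay below both, against 34.7%. The median log2 fold change in bIP was 0.67 for the first set and -0.70 for the second, and 0.0048 over all genes tested in radial glia. An unadjusted bIP p under 0.05 was reached by 138 of the 413 (33.4%) and 35 of the 109 (32.1%), against 711 of all (4.33%). The spread behind these p-values came mainly from the radial glia libraries that made the calls. Called genes also had higher levels than the rest, so these shares are not independent of the calls and nothing is read from them. Genes called without bRG library 3 gave similar shares (652 of 713 and 348 of 386). In neurons, where the unnumbered library and library 1 are 1 against 1, the unnumbered library was the higher for 385 of the 413 (93.2%, against 50.2% of all genes) and the lower for 95 of the 109 (87.2%, against 49.5%). The column of that library bears number 2, which by name would place it with libraries 1 and 2, so its side is uncertain.

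**Figure D5:**
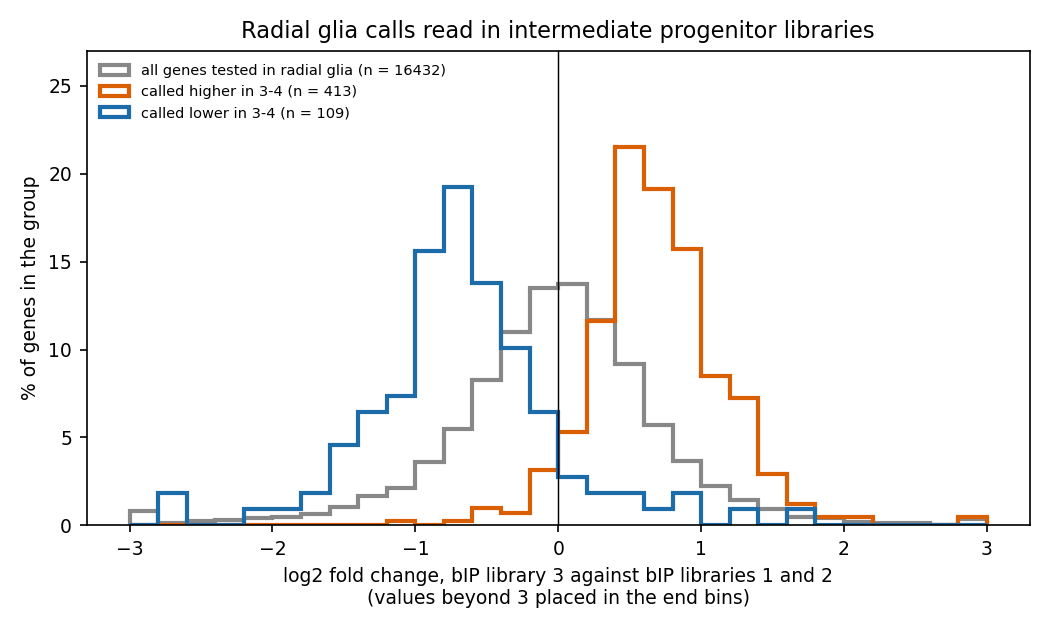
Distribution of the log2 fold change of bIP library 3 against bIP libraries 1 and 2, as a percentage of genes per bin of 0.2, for all genes tested in radial glia, the 413 called higher and the 109 called lower in radial glia libraries 3-4. The called genes are shifted to their own side, with medians of 0.67 and -0.70 against 0.0048 for all genes.

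By list, the bIP medians were smaller than those in radial glia but of the same sign for unfolded protein response (0.47, 18 of 23 above 0), cholesterol (0.40, 19 of 25), hypoxia (0.33, 21 of 32), heat shock (0.23, 11 of 17) and glycolysis (0.16, 17 of 23), against 0.0027 over all genes tested there. Pan-neuronal genes did not share the direction (median 0.11, 16 of 29 above 0), and Cajal-Retzius genes were lower (median -1.36, 1 of 10 above 0). RELN, the secreted signal of Cajal-Retzius neurons, measured 3049, 2052 and 1049 CPM in the bIP libraries. In the neurons the average log2 CPM of the cholesterol list was 8.04 in library 1 and 8.35 in the unnumbered library, and that of the unfolded protein response list 6.03 and 6.58. MSMO1 measured 542 CPM in neuron library 1 and 1210 in the unnumbered library. The totals were 6181720, 9229757 and 10812093 counts in bIP libraries 1 to 3, 9150566 in neuron library 1 and 12524938 in the unnumbered one. With the 11 libraries thinned to the smallest total, no bIP gene was called by edgeR and 735 had an unadjusted p under 0.05. Of the labels' fields, the numbers and the order of the library names run with the split, and what the numbers mark was not stated there.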

How the data were processed

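The authors deposited raw read counts per gene, not normalized, in tables on hg38 (18137 genes, used here) and on gorGor6 (60583 named genes, used as an alternative; only the name of the table gives this build). The submitters' processing notes list STAR and hg38 with no role or version. Sources used here give no annotation, counter or strand, which leaves overlapping genes and paralogs uncertain. A blank gorGor6 row (0.0035% to 0.0077% of counts) was left out.

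Counts were tested in R 4.3.3 with edgeR 4.0.16 (quasi-likelihood test after TMM scaling and filterByExpr with a minimum count of 10). CPM and log2 CPM (prior count 2) were computed from the counts. Gene numbers are limited by totals of 5464721 counts or more per library. Procedures were tested on simulated data. No pair of libraries of 1 population was a duplicate (chi-square of counts per degree of freedom 10.6 to 92.4). The 32 lists, the comparison and the naming rule were chosen with earlier results of these data known. The rule named the 4 given genes, the 12 largest rises and falls, up to 6 members per list by smallest p, and the 4 smallest p where a test called none. Alternatives were DESeq2 1.42.0, its size factors, no filter, the gorGor6 table, limma 3.58.1 with library weights or the number as a block, other sets of libraries, removal of each library, and thinning (chosen after seeing the totals), as were the counts without bRG library 3. Promoter motifs were not searched, since no sequence was used. Some named genes are not reported here.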

Additional observations from a re-analysis of the deposited data

Results flagged for a closer look

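In groups of 4 radial glia libraries, 15 of 258 values checked had 1 library far from the other 3 (a gap to the nearest above the Dixon limit). Chance alone flags about 5% of such groups, so the count was close to that share and the flags below are descriptions only. Of the 15, 6 were aRG library 2 values of rostral, eye-field and FGF-related genes in CPM: SIX3 (51.6, next highest 9.72), SIX6 (22.9), RAX (9.53), FZD5 (27.7), FGF9 (42.2) and ETV4 (12.1, next highest 4.68). SIX3 was likewise far above in bRG library 2 (27.8). The Cajal-Retzius list was also highest in aRG library 2 (mean log2 CPM 3.67, next highest 3.08). In aRG library 3, JUNB was far above the other aRG libraries (27.7 CPM, next highest 6.40). Library 4 of aRG was far above the others for SOX9 (294 CPM), the oxidative phosphorylation list (mean log2 CPM 6.43) and the S phase list (6.59). In bRG library 3 the ribosomal protein list (6.60, next lowest 6.77) and the mesenchyme list (2.85, next lowest 3.15) were far below the other bRG libraries. In aRG library 1, 17065 genes had a count, far below the other aRG libraries (17489 and more).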

How the results depend on the processing

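For the radial glia comparison 522 genes were called. DESeq2 called 1415, library quality weights in limma 1917 (64.8% of them higher), edgeR on gorGor6 counts 343, the aRG libraries alone 64 and the bRG libraries alone 0. Removing 1 library gave 0 (without bRG library 1) to 1099 (without bRG library 3). With DESeq2 size factors (488), no filter (546), all 13 libraries (701) or thinned counts (561) the count stayed within 1.5 times. In each of these fits on hg38 all 522 genes that were tested kept their sign, and on gorGor6 506 of 508 did. Named genes called between the sides therefore kept their direction in these fits on hg38. Direction was less stable for genes not called: JUNB had a log2 fold change of 1.56 in aRG and -0.13 in bRG. The 88 named genes include genes that were not called with the 8 libraries. Of the called ones, 66 lost their call without bRG library 1, where no gene kept it, and 45 without bRG library 2. On gorGor6, where 86 of the named genes were tested, 15 lost it.

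For the interaction 0 genes were called, and removing 1 library gave 0 to 991 (without bRG library 4). For bIP library 3 the count of 0 became 26 with DESeq2, 911 with the 3 bIP libraries alone and 9 without bRG library 3. Of single libraries, bIP libraries 1 and 2 and bRG library 3 were removed there, which gave 0 to 9. The causes were not tested. The median of all interaction values was 0.08, and it was -0.11 on gorGor6, 0.11 without bRG library 1 and -0.12 without bRG library 4.

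The numbers in the labels could not be taken to pair the libraries, since number 3 showed no shared deviation: deviations of aRG and bRG libraries of the same number correlated at 0.11, 0.40, -0.01 and 0.14 for numbers 1 to 4, and not every library correlated best with its own number, though those of number 2 did. With the number as a replicate block, 409 genes were called between the sides (limma, 318 higher and 91 lower) and 0 for the interaction (edgeR, 732 with an unadjusted p under 0.05). No block was possible for bIP, whose numbers define the contrast. Totals of 5464721 to 7153514 counts limit what libraries 1-2 show of genes at a few CPM.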

Other observations

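Further genes, some of them list members, differed by number in ways the list medians do not show. FGF8, a secreted organiser of the rostral forebrain, measured 10.4, 8.68, 1.82 and 0.413 CPM in aRG libraries 1 to 4 and 2.04, 7.17, 0.236 and 1.81 in bRG libraries 1 to 4. All libraries of number 3 or 4 lay below all of number 1 or 2, at levels of few reads, and FGF8 was not called. SLC17A7, a vesicular glutamate transporter of cortical neurons, measured 31.1, 24.0, 14.9 and 15.1 CPM in aRG and 66.2, 70.4, 23.5 and 24.5 in bRG (chosen after its values were seen). BIRC5, a protein of the mitotic chromosomal passenger complex, measured 179, 126, 85.0 and 137 CPM in aRG and 40.2, 28.9, 6.97 and 15.6 in bRG, the opposite side from the mitotic kinase CDK1, and was not called (log2 fold change -1.02).

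Libraries 1 and 2 of a population were the pair nearest to each other in counts. The chi-square per degree of freedom was 18.7 between aRG libraries 1 and 2, 13.8 between bRG libraries 1 and 2 and 10.6 between bIP libraries 1 and 2. It was 30.1 between aRG libraries 3 and 4 and 67.3 between bRG libraries 3 and 4, whose totals are larger, and 28.3 to 92.4 between libraries of different sides in radial glia and bIP. Chi-square grows with depth, so these values do not rank the sides. Called genes had higher levels than the others: the median mean log2 CPM was 6.06 for genes called higher, 5.69 for genes called lower and 4.37 for genes not called.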
